A study of Mus musculus with 12 samples.

Results

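Genes that govern how T cells leave the thymus and where they settle were followed by ATAC-seq, an assay in which a transposase inserts sequencing adapters into open chromatin, so that the number of insertions reads how accessible a stretch of DNA is. The 7 genes were Klf2, S1pr1, Itga4, Itgae, Itgal, Itgb7 and Cd44, and the regions read for them were all regions of the deposited table that overlap a gene body (GENCODE vM21) or the 10 kb on either side. This rule uses positions alone and took 69 of the 63309 regions, each 500 bp long, with 2 at Klf2, 6 at S1pr1, 8 at Itga4, 19 at Itgae, 8 at Itgal, 9 at Itgb7 and 17 at Cd44.

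A developing T cell leaves the thymus when the zinc finger factor KLF2 switches on S1PR1, the receptor that senses the sphingosine-1-phosphate of blood and lymph. Integrins then decide where the cell adheres. The α4 chain (Itga4) pairs with β7 (Itgb7) to bind MAdCAM-1 of gut vessels or with β1 to bind VCAM-1, the αE chain (Itgae, CD103) pairs with β7 to bind E-cadherin on epithelium, and the αL chain (Itgal, CD11a) pairs with β2 to form LFA-1, which binds ICAM molecules. CD44 binds hyaluronan and marks antigen-experienced and effector T cells. Invariant NKT (iNKT) cells are innate-like T cells that recognise lipids on CD1d and mature into the iNKT1, iNKT2 and iNKT17 subsets, and part of them, iNKT1 cells above all, stay in the thymus for long.

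Cells were sorted from thymocytes of untreated mice aged 8 to 9 weeks, either C57BL/6 or Hivep3-/-, with 2 libraries for each of 3 subsets in each genotype and 12 libraries in all. HIVEP3 is a large zinc finger protein, and both alleles of its gene are disrupted in the Hivep3-/- mice. Subsets were gated as CD122+ ICOS- for iNKT1, CD122- ICOS+ Izumo1r+ CD138- for iNKT2 and CD122- ICOS+ Izumo1r- CD138+ for iNKT17, joined again for the transposition and parted a second time by ICOS and CD138. None of the 7 genes is among these gates. Thymi were pooled, per the study's methods. The C57BL/6 mice were bought while the Hivep3-/- mice were backcrossed to that strain, so that the loss of Hivep3 and the origin of the mice cannot be told apart, and the replicates are numbered as mice in the sample titles although the thymi were pooled. What the replicates share is thus unclear, and p-values measure the spread between these libraries, which may be technical. In sorted pools, a region open in fewer cells and a region less open in every cell cannot be told apart.

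The table holds log2 insertions per kb after normalization, and its linear sums were nearly equal across libraries (1915050 to 1919040), so that depth could not be read from it. As a stand-in for depth, the values found in the lower part of a library (at or under its median) took 73 to 491 different levels, a number that grows with depth. These levels went with genotype in each subset. They were 139 and 170 in C57BL/6 and 227 and 491 in Hivep3-/- iNKT1, but 219 and 159 and then 91 and 118 in iNKT2. In iNKT17 they were 142 and 134 and then 85 and 73. The part of depth in the differences between genotypes was not tested. Most subset markers went with the labels. Summed over their loci, 4 of 5 iNKT1, 5 of 6 iNKT2 and 6 of 6 iNKT17 genes were highest in their own subset in C57BL/6 and, with the same counts, in Hivep3-/-. The iNKT1 exception was Il2rb, which codes for the gate CD122. Its total was highest in iNKT17, 808 beside 672 in iNKT1 in C57BL/6 and 812 beside 697 in Hivep3-/-. The iNKT2 exception was Gata3, highest in iNKT1, 543 beside 489 in iNKT2 and 476 beside 454. The promoters of both were highest in their own subset in both genotypes. The promoter of Il17rb, another iNKT2 gene, was not, at 34.4 in iNKT1 beside 30.4 in iNKT2 in C57BL/6. In Hivep3-/- the Il17rb promoter was lowest in iNKT2, at 22.6 beside 24.6 in iNKT1 and 30.0 in iNKT17. Of genes of other cells, the promoters of 3 B cell, 3 myeloid and 3 CD8 or double positive thymocyte genes were not among the regions. The promoter of Epcam, 1 of 2 epithelial genes, was accessible in all 6 groups (8.83 to 16.1 insertions per kb), and regions at the loci of 2 B cell genes summed to 342 to 449. Their part in the results was not tested. Accessibility does not check the deletion itself. By limma 0 of the 21 regions at Hivep3 passed the test between genotypes in any subset, and their median differences were 0.32 in iNKT1, -0.10 in iNKT2 and 0.29 in iNKT17.

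Of the 69 regions, 33 lay in introns, 12 upstream, 6 downstream, 3 in coding exons and 2 in UTR exons, while 7 were the promoter regions and 6 lay within 1 kb of a start. A promoter region is the one of highest mean among those centred within 1 kb of a transcription start of the gene. All 69 were accessible, with a mean of at least 5 insertions per kb, in at least 1 group, and 50 were accessible in all 6 groups. The 2 libraries of a group differed little, with a median SD of 0.112 over regions and groups on the log2 scale. Another gene overlapped 17 regions, among them Ncbp3, whose 3′ UTR holds the 4 upstream regions assigned to Itgae, Haspin within Itgae, and Zfp740 beyond the end of Itgb7, and the reads of such regions cannot be given to 1 of the genes. The map of all values showed blocks set by subset in Cd44, Itgae and Itgal and a block set by genotype in Itga4.

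**Figure D1:**
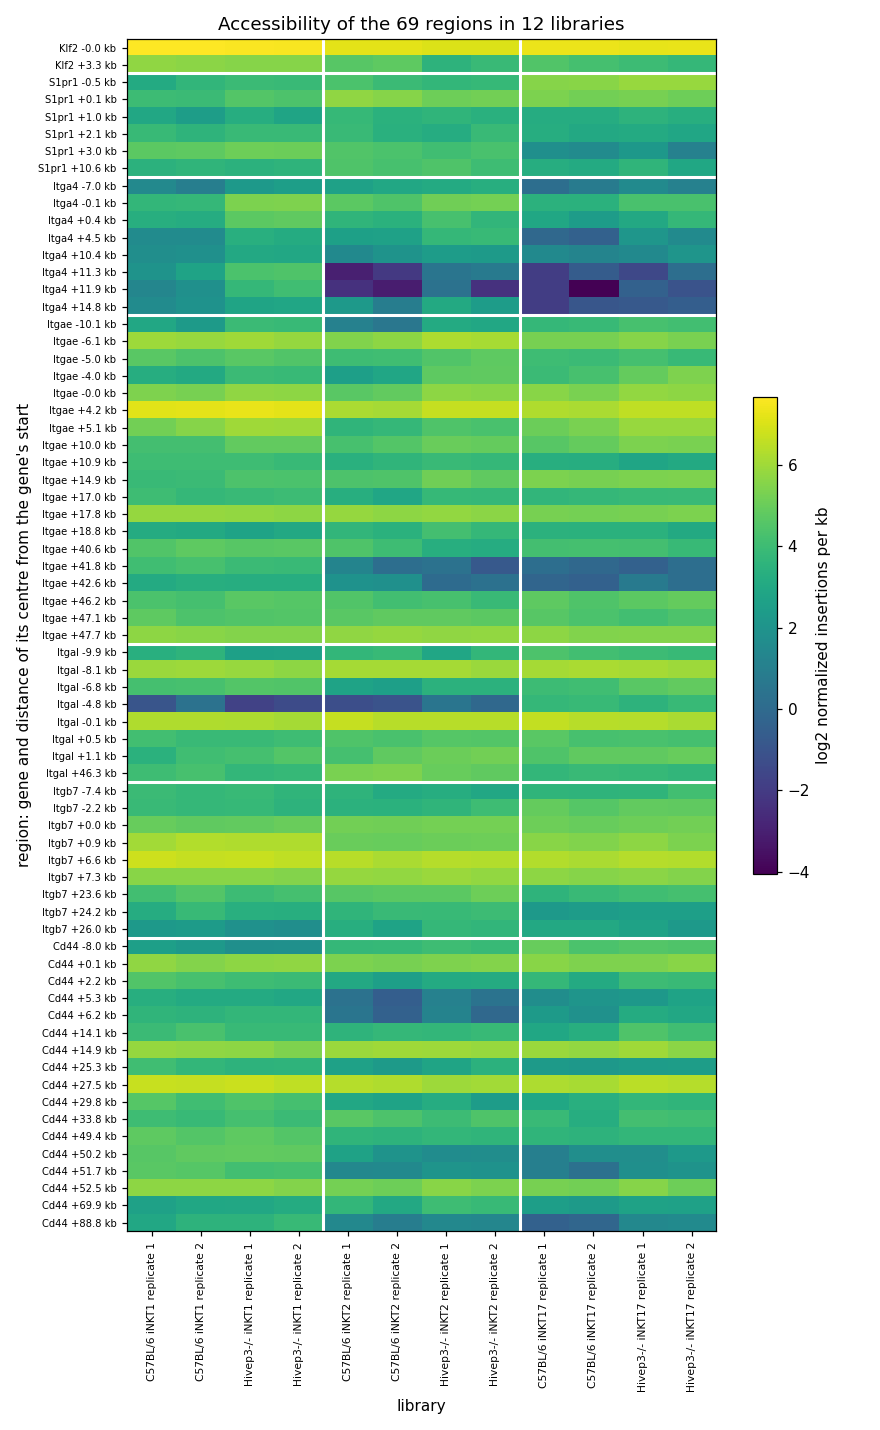
Log2 normalized insertions per kb of the 69 regions (rows, by gene and by the distance of the centre from the gene's start in kb, + being into the gene) in the 12 libraries (columns, white lines between subsets). The rows of Itga4 are brighter in both Hivep3-/- iNKT1 libraries than in both C57BL/6 iNKT1 libraries, and the darkest rows are Itga4 introns in iNKT2 and iNKT17.

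Between the genotypes, Itga4 opened and Itgae rose upstream of its start, while no region of Klf2, S1pr1, Itgal, Itgb7 or Cd44 passed the test. The test was limma over all regions with a mean of at least 5 insertions per kb in either compared group, with Benjamini-Hochberg adjustment, and a region passed when it changed 3-fold or more with an adjusted p under 0.1. In iNKT1 cells 3 of 68 tested regions rose in Hivep3-/-, all 3 at Itga4, against 0.89% of all tested regions, and 0 fell against 0.264%. In iNKT2 cells 2 of 60 rose, both upstream of Itgae, against 0.474%, and 0 fell against 1.2%. In iNKT17 cells 0 of 57 passed in either direction, against 0.133% of all that rose and 0.138% that fell. With no fold threshold, 13 of 68, 18 of 60 and 7 of 57 had an adjusted p under 0.1 in iNKT1, iNKT2 and iNKT17, beside 9.42%, 16.4% and 4.65% of all tested regions. An unadjusted p under 0.05 was found for 20, 24 and 16 of them, beside 17.8%, 25.3% and 15.8% of all. The median difference of the tested members was 0.03, 0.15 and 0.10, beside -0.02, -0.00 and -0.01 over all tested regions. The values of the 2 genotypes did not overlap at 44, 46 and 41 of the 69 regions, while the same was seen at 53.5%, 52.8% and 44.0% of all regions.

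**Figure D2:**
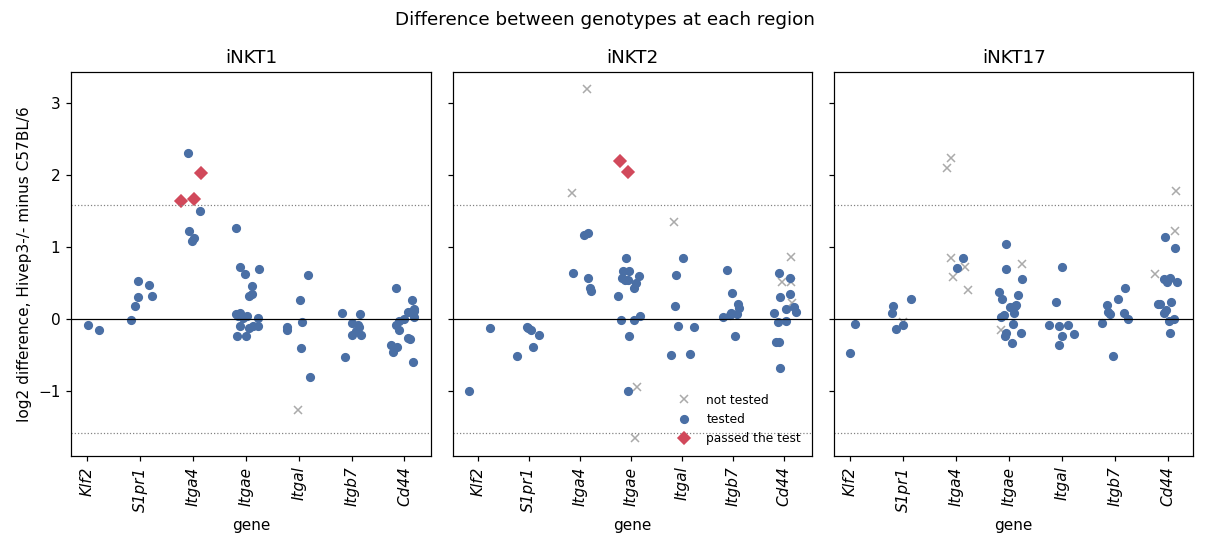
Log2 difference between genotypes (Hivep3-/- minus C57BL/6, y axis) of each region by gene (x axis) in the 3 subsets. Diamonds passed the test, circles were tested, crosses had means under 5 insertions per kb in both groups and were not tested, and dotted lines mark 3-fold. The 3 diamonds of iNKT1 are at Itga4 and the 2 of iNKT2 at Itgae.

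Klf2 (ENSMUSG00000055148.7, chr8:72319033-72321656, + strand) was most accessible in iNKT1 cells. Its promoter region, centred 29 bp before the start, gave 7.67 and 7.68 in C57BL/6 iNKT1, 7.18 and 7.21 in iNKT2 and 7.35 and 7.32 in iNKT17. It was the most open of the 69 regions in every library, and the subsets did not overlap, though iNKT1 was above iNKT2 by only 0.48 (SE 0.06, limma adjusted p = 1.29e-05). In Hivep3-/- it gave 7.61 and 7.58, 7.07 and 7.08, and 7.25 and 7.29, differences of -0.08, -0.12 and -0.06 with adjusted p = 0.547, 0.204 and 0.671.

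The other region of Klf2 lies 3.25 kb past the start, beyond the end of the gene (chr8:72322038-72322537). It read 5.72 and 5.66 in C57BL/6 iNKT1, 4.63 and 4.79 in iNKT2 and 4.52 and 4.21 in iNKT17, so that iNKT1 was 2.51-fold above iNKT17 (adjusted p = 9.79e-06), short of 3-fold. In Hivep3-/- iNKT2 it read 3.55 and 3.89, below both C57BL/6 iNKT2 libraries (difference -1.0, SE 0.16, adjusted p = 0.00191), short of 3-fold. The summed promoters of the 5 iNKT1 marker genes were 284 and 273 in these C57BL/6 libraries and 214 and 236 in the Hivep3-/- ones on the linear scale, and their part in this difference was not tested. In iNKT1 the difference was -0.15 and in iNKT17 -0.47, and the difference between the changes in iNKT1 and iNKT2 was 0.85 (SE 0.22, interaction adjusted p = 0.0412). Within Hivep3-/- cells the region passed the 3-fold test for iNKT1 against iNKT2 (3.55-fold) and against iNKT17 (3.12-fold).

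S1pr1 (ENSMUSG00000045092.8, chr3:115710433-115715072, - strand), the egress receptor, used its regions differently in the subsets. The promoter region, centred 140 bp inside the start and also over Gm9889, gave 3.98 and 3.97 in C57BL/6 iNKT1, 5.72 and 5.54 in iNKT2 and 5.39 and 5.17 in iNKT17. It was thus lowest in iNKT1, 3.16-fold under iNKT2 (difference -1.66, SE 0.13, adjusted p = 6.33e-07). A neighbouring region 498 bp before the start read 3.11 and 3.67, 4.34 and 3.94, and 5.55 and 5.60 in the same order and was 4.55-fold lower in iNKT1 than in iNKT17 (adjusted p = 4.85e-07). The coding exon ran the other way. At chr3:115711829-115712328, 2.99 kb into the gene, C57BL/6 iNKT1 gave 4.73 and 4.78, iNKT2 gave 4.48 and 4.37, and iNKT17 gave only 1.79 and 1.60, a difference of 3.06 between iNKT1 and iNKT17 (SE 0.27, adjusted p = 6.53e-07).

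Between the genotypes the S1pr1 promoter moved in opposite directions in 2 subsets. In Hivep3-/- iNKT1 it read 4.52 and 4.39, above both C57BL/6 libraries by 0.48 (SE 0.13, adjusted p = 0.051), and in Hivep3-/- iNKT2 it read 5.07 and 5.18, below both (difference -0.51, SE 0.13, adjusted p = 0.0278). Hivep3-/- iNKT17 libraries, at 5.30 and 5.08, overlapped the C57BL/6 ones. The changes in iNKT1 and iNKT2 differed by 0.99 (SE 0.19, interaction adjusted p = 0.00883), under the 3-fold threshold. Across all 6 regions, 5 were higher in iNKT1 and 0 of 6 in iNKT2, beside 46.6% and 49.8% of all tested regions. Markers of the subsets moved as well. The summed promoters of the 6 iNKT2 genes were 304 and 283 in C57BL/6 iNKT1 and 232 and 233 in Hivep3-/- iNKT1 on the linear scale. These sums were also lower in Hivep3-/- in the other subsets. They went from 415 and 390 to 375 and 354 in iNKT2 and from 289 and 280 to 263 and 248 in iNKT17. Those of the 5 iNKT1 genes were 284 and 273 in iNKT2 of C57BL/6 mice and 214 and 236 in Hivep3-/- iNKT2. In iNKT1 and iNKT17 the sums of the iNKT1 genes overlapped between genotypes. The part of these markers in the changes of S1pr1 was not tested.

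Itga4 (ENSMUSG00000027009.18, chr2:79255426-79333123, + strand), the α4 integrin chain, was the gene whose summed accessibility changed most between genotypes. All 8 of its regions lie between 6.96 kb before and 14.8 kb after the start, and none overlaps another gene. The 3 that passed in iNKT1 are printed from the GRCm38.p6 reference (mm10), + strand, because they are the regions called between genotypes in that subset. Each run is 300 bases long, the promoter up to the base before the start and the introns from the middle of the region. Capitals mark matches to 1 of 10 motif families searched on both strands, here KLF (CCACACCC or CCACGCCC), Runt (AACCACA) and bZIP (TGANTCA). In the reference 0% of the promoter region, 33.8% of the first intron region and 25.6% of the second is masked as repeat.

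Itga4 promoter, chr2:79255126-79255425: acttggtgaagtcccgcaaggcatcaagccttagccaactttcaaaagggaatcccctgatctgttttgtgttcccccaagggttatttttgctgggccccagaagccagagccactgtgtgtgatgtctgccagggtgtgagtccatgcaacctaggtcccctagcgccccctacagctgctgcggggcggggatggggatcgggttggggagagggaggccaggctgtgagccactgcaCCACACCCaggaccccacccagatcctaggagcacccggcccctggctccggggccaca
Itga4 intron at 4.53 kb, chr2:79259809-79260108: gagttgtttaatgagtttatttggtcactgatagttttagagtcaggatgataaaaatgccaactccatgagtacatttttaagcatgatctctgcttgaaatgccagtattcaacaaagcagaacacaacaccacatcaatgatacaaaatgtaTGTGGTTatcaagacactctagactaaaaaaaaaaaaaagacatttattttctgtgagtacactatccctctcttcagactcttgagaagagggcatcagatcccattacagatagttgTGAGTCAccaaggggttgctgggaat
Itga4 intron at 11.3 kb, chr2:79266545-79266844: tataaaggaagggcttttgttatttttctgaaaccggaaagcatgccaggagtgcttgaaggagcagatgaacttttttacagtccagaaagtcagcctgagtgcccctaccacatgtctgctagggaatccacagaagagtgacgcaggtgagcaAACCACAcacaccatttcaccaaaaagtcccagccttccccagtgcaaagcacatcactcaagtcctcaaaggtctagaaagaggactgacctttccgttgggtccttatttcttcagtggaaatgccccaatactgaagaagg

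The Itga4 promoter region (chr2:79255048-79255547) read 3.72 and 3.78 in C57BL/6 iNKT1 and 5.36 and 5.43 in Hivep3-/- iNKT1. The genotypes were well apart, with a rise of 1.64 (SE 0.14, 3.13-fold, limma adjusted p = 2.98e-05). The same region rose from 4.74 and 4.45 to 5.13 and 5.22 in iNKT2, by 0.58 (adjusted p = 0.0195), and from 3.50 and 3.46 to 4.32 and 4.32 in iNKT17, by 0.84 (adjusted p = 0.0106), both short of 3-fold. With 1 insertion per kb added before the logarithm the rise in iNKT1 was 1.58, just short of 3-fold. The rise in iNKT1 was larger than in iNKT2 by 1.07 (SE 0.20, interaction adjusted p = 0.00772) and than in iNKT17 by 0.80 (SE 0.20, adjusted p = 0.0619).

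In the first intron shown, 4.53 kb into the gene (chr2:79259709-79260208), accessibility went from 1.61 and 1.60 to 3.35 and 3.19 in iNKT1, a rise of 1.67 (SE 0.28, 3.18-fold, adjusted p = 0.00312) that was 1.40 with 1 insertion per kb added. In iNKT2 it went from 2.61 and 2.64 to 3.76 and 3.84 (1.17, adjusted p = 0.0169). In iNKT17 it went from -0.10 and -0.41 to 2.13 and 1.57, without overlap, but both means were under 5 insertions per kb and the change was not tested.

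The intron at 11.3 kb (chr2:79266445-79266944) was nearly closed in iNKT2 and iNKT17 and more open in iNKT1. Its C57BL/6 iNKT1 mean of 5.39 insertions per kb was just above the level tested. C57BL/6 iNKT1 read 2.00 and 2.76, iNKT2 -3.02 and -2.10, and iNKT17 -1.91 and -0.61, a difference of 4.94 between iNKT1 and iNKT2 (SE 0.64, adjusted p = 3.31e-05) that was the largest between C57BL/6 subset means at Itga4. With 5 insertions per kb added this difference was 0.99, short of 3-fold. Without C57BL/6 iNKT1 replicate 2, or with the filter on the mean of all libraries, it was not tested. In Hivep3-/- iNKT1 the intron read 4.36 and 4.46, higher by 2.03 (SE 0.64, 4.08-fold, adjusted p = 0.0877). This call was lost when any of the 4 iNKT1 libraries was left out, with adjusted p from 0.144 to 0.493, although the difference stayed between 1.65 and 2.41. In iNKT2 the values rose to 0.51 and 0.76 in Hivep3-/-, again without overlap and under the level tested.

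The region next to it at 11.9 kb (chr2:79267065-79267564) had the largest difference tested between genotypes among the members, from 1.35 and 1.86 to 3.75 and 4.08 in iNKT1, a rise of 2.31 with a wide SE of 0.92 (adjusted p = 0.189). Blocking on the replicate number brought its adjusted p to 0.0863, which raised the count in iNKT1 from 3 to 4. It was also called with a pseudocount of 1 (1.99, adjusted p = 0.000732) and in a fit to the 4 compared libraries only (2.31, adjusted p = 0.00068). It is also the region where C57BL/6 iNKT17 replicate 2 had the lowest value of its library, -4.05. Of the other 4 regions, those 397 bp (1.50, adjusted p = 0.0048) and 10.4 kb (1.23, adjusted p = 0.0271) inside the gene and 6.96 kb before it (1.13, adjusted p = 0.0661) were higher in Hivep3-/- iNKT1 below 3-fold, and the one at 14.8 kb differed by 1.08 (adjusted p = 0.271). All 8 of 8 regions were thus higher in iNKT1, and all 6 tested in iNKT2 and both tested in iNKT17. Of all tested regions 46.6%, 49.8% and 48.1% were higher in the 3 subsets, and regions of 1 gene are not independent.

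**Figure D3:**
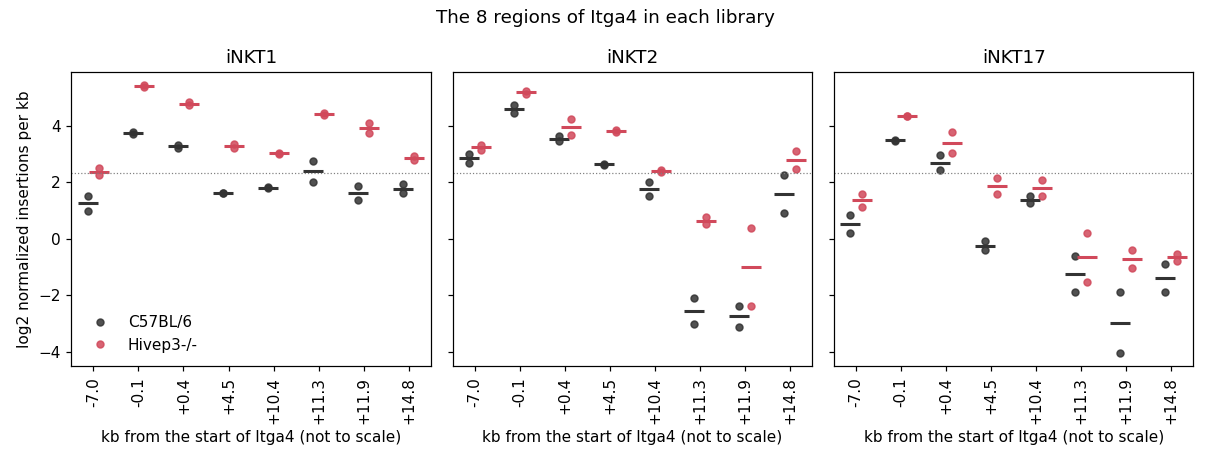
Log2 normalized insertions per kb (y axis) of the 8 regions of Itga4 in order of distance from the start (x axis, kb) in each library of the 3 subsets. Points are libraries, short bars the mean of 2, and the dotted line is 5 insertions per kb. In iNKT1 both Hivep3-/- points lie above both C57BL/6 points at all 8 regions, while the genotypes did not overlap, in either direction, at 53.5% of all regions.

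Itgae (ENSMUSG00000005947.11, chr11:73090583-73147446, + strand), the αE chain of CD103, had 19 regions, the most of the 7 genes, and rose in Hivep3-/- iNKT2 in its 5′ part. The promoter region, centred 46 bp before the start, read 4.70 and 4.88 in iNKT2 of C57BL/6 mice and 5.67 and 5.61 in those of Hivep3-/- mice, the former the lowest of all groups and the latter near iNKT1 and iNKT17. The rise of 0.85 (SE 0.12, adjusted p = 0.000851) was short of 3-fold. The strongest region, 4.24 kb into the gene, went from 6.19 and 6.12 to 6.65 and 6.65 in iNKT2 (0.50, adjusted p = 0.00151), and a region at 5.09 kb was higher in Hivep3-/- by 0.62, 0.67 and 0.69 in iNKT1, iNKT2 and iNKT17 with adjusted p = 0.0182, 0.00874 and 0.0248.

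The 2 regions that passed lie upstream, in the 3′ UTR of Ncbp3, the gene before Itgae. At chr11:73080271-73080770, 10.1 kb before the Itgae start, C57BL/6 iNKT2 read 1.10 and 0.61 and Hivep3-/- iNKT2 3.12 and 3.00, a rise of 2.20 (SE 0.25, 4.6-fold, adjusted p = 0.000225). The region was already open in iNKT17, at 3.77 and 3.87 in C57BL/6 and 4.27 and 4.13 in Hivep3-/-, and the changes in iNKT2 and iNKT17 differed by 1.82 (SE 0.35, interaction adjusted p = 0.025). That difference was under 3-fold without C57BL/6 iNKT2 replicate 2 (1.57) and with a pseudocount of 1 (1.37) or 5 (0.67). In iNKT1 the region went from 2.96 and 2.33 to 3.97 and 3.85, a rise of 1.26 (SE 0.25, 2.4-fold, adjusted p = 0.00805). At chr11:73086308-73086807, 4.03 kb before the start, the values went from 2.57 and 2.91 to 4.77 and 4.82 in iNKT2 (2.05, SE 0.20, 4.14-fold, adjusted p = 9.3e-05). There the rise was 0.72 in iNKT1 (adjusted p = 0.0458) and 1.05 in iNKT17 (adjusted p = 0.0178). Over the gene body alone, without the 10 kb on either side, 0 regions passed in iNKT2, since these 2 lie outside it.

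The 3′ part of Itgae held regions of iNKT1 cells. At 41.8 kb (chr11:73132087-73132586) C57BL/6 iNKT1 read 4.07 and 4.25, iNKT2 1.27 and 0.21, and iNKT17 0.18 and -0.09, a difference of 4.12 between iNKT1 and iNKT17 (SE 0.46, adjusted p = 4.92e-06). The same was seen in Hivep3-/-, where iNKT1 read 3.96 and 3.89 and exceeded iNKT2 by 4.13 and iNKT17 by 4.03. The middle 300 bases are shown because this is the widest subset difference of the gene, with capitals for the KLF and ETS (CAGGAAGT) matches. Of the whole region 61.8% is masked as repeat in the reference, and how reads with more than 1 mapping position were treated is not given in the sources used here.

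Itgae intron at 41.8 kb, chr11:73132187-73132486: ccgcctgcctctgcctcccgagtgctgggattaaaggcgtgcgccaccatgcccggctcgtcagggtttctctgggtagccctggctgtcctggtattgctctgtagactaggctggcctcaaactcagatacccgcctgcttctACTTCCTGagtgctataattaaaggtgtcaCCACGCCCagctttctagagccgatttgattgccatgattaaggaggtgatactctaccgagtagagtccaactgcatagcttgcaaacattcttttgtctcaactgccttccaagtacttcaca

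Next to it, at 42.6 kb (chr11:73132949-73133448), iNKT1 read 3.11 and 3.29 in C57BL/6 and 3.28 and 3.25 in Hivep3-/-. In iNKT2 it read 1.91 and 1.82 in C57BL/6 and 0.06 and 0.35 in Hivep3-/- (difference -1.66), not tested because both means were under 5 insertions per kb, and the changes in iNKT1 and iNKT2 differed by 1.73 (SE 0.48, interaction adjusted p = 0.048). The call was lost without 6 of 8 libraries, each left out in turn, with differences from 1.58 to 1.87. The region at 40.6 kb went from 4.46 and 4.06 to 3.31 and 3.21 in the same cells (difference -1.0, SE 0.18, adjusted p = 0.00365), short of 3-fold. The iNKT1 marker promoters were lower in Hivep3-/- than in C57BL/6 iNKT2 by the sums given at S1pr1, and their part in these differences was not tested.

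Itgal (ENSMUSG00000030830.18, chr7:127296260-127335138, + strand), the αL chain of LFA-1, carried a region of iNKT17 cells. At chr7:127291185-127291684, 4.83 kb before the start, C57BL/6 iNKT17 read 3.75 and 3.85, while iNKT1 read -0.94 and 0.36 and iNKT2 -1.22 and -1.06, a difference of 4.94 between iNKT17 and iNKT2 and of 4.09 between iNKT17 and iNKT1 (SE 0.49 each, adjusted p = 2.93e-06 and 9.73e-06). Hivep3-/- iNKT17 read 3.55 and 3.88, which overlapped the C57BL/6 values. The 300 bases in its middle hold 1 match to the ROR motif (TAGGTCA or TGGGTCA), in capitals and on the - strand, and 46.6% of the whole region is masked as repeat.

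Itgal upstream region, chr7:127291285-127291584: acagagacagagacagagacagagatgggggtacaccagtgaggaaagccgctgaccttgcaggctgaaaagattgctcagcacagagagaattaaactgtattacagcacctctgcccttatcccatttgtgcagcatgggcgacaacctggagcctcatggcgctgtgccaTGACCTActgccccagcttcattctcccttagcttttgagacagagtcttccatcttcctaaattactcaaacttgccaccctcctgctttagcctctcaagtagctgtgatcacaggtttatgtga

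The Itgal promoter region, 60 bp before the start, was alike in all groups, between 6.11 and 6.67 in the 12 libraries, with differences between genotypes of -0.10, -0.11 and -0.23 (adjusted p = 0.728, 0.559 and 0.309). A region 6.77 kb before the start, over Gm31897, was higher in Hivep3-/- iNKT2 by 0.84 (SE 0.15, adjusted p = 0.00409), from 2.74 and 2.57 to 3.50 and 3.49, and in Hivep3-/- iNKT17 by 0.73 (adjusted p = 0.0291), both below 3-fold.

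Itgb7 (ENSMUSG00000001281.10, chr15:102215995-102231944, - strand), the β7 chain shared by α4β7 and αEβ7, had 0 of 9 regions that passed between C57BL/6 subsets or between genotypes, while 1, over Zfp740, passed for iNKT1 against iNKT2 in Hivep3-/-. For the genotypes 0 of 9 had an adjusted p under 0.1 for the genotypes in any subset. Its promoter region by the rule lies 871 bp inside the start and read 6.04 and 6.34 in C57BL/6 iNKT1, 5.02 and 4.95 in iNKT2 and 5.62 and 5.46 in iNKT17, so that iNKT1 was 2.3-fold above iNKT2 (adjusted p = 7.37e-06). The region at the annotated start itself, centred 2 bp from it, was between 4.81 and 5.24 in all 12 libraries. The widest range between C57BL/6 subsets, 1.40 between iNKT2 and iNKT17 (SE 0.22, adjusted p = 0.000156), was at 24.2 kb, where the region lies over Zfp740. A region 2.16 kb before the start was highest in iNKT17, at 4.93 and 4.59 beside 3.89 and 3.76 in iNKT1 and 3.49 and 3.44 in iNKT2.

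Cd44 (ENSMUSG00000005087.17, chr2:102811141-102901665, - strand), the hyaluronan receptor, was read at 17 regions, and iNKT1 cells had the most of it open. At 5 regions C57BL/6 iNKT1 was higher than iNKT2, at 4 it was higher than iNKT17 and at 1 it was lower than iNKT17. The intron at 51.7 kb (chr2:102849677-102850176) read 4.70 and 4.61 in iNKT1, 1.42 and 1.53 in iNKT2 and 1.03 and 0.35 in iNKT17, differences of 3.18 and 3.96 (SE 0.26, adjusted p = 7.5e-07 and 5e-08). The middle 300 bases are shown with a T-box (AGGTGTGA) and an ETS match in capitals.

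Cd44 intron at 51.7 kb, chr2:102849777-102850076: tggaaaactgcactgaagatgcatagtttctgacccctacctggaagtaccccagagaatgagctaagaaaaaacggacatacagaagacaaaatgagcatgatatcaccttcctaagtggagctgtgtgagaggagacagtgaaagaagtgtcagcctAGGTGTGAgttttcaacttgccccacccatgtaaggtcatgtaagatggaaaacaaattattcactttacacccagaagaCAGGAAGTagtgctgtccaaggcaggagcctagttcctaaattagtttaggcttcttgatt

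Other introns passed as well, the one at 50.2 kb against both subsets, the one at 25.3 kb against iNKT17, and those at 6.22 and 5.31 kb against iNKT2. At 50.2 kb C57BL/6 iNKT1 read 4.63 and 4.83 beside 2.70 and 2.00 in iNKT2 and 1.03 and 1.74 in iNKT17. At 6.22 kb it read 3.63 and 3.55 beside 0.49 and -0.41 in iNKT2 and 2.32 and 1.88 in iNKT17. At 5.31 kb it read 3.31 and 3.12 beside 0.36 and -0.55 and 1.71 and 2.09, so that iNKT17 stood between the other subsets at the last 2. The UTR exon 88.8 kb from the start was 3.55 higher in iNKT1 than in iNKT17 (SE 0.33, adjusted p = 9.39e-07). The region 7.99 kb before the start was the 1 in reverse, lower in C57BL/6 iNKT1 than in iNKT17 (-2.27, SE 0.21, adjusted p = 1.07e-06). The promoter region stood between 5.27 and 5.73 in all 12 libraries.

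No region of Cd44 passed between genotypes, and 2 had an adjusted p under 0.1 in 1 subset each. An intron at 14.1 kb went from 2.94 and 3.32 to 4.46 and 4.08 in iNKT17 (1.14, SE 0.20, 2.2-fold, adjusted p = 0.0129), and an intron at 27.5 kb was lower in Hivep3-/- iNKT2 (-0.32, adjusted p = 0.0403). The UTR exon 88.8 kb from the start went from -0.41 and -0.17 to 1.41 and 1.57 in iNKT17. The genotypes did not overlap there, as at 44.0% of all regions in iNKT17. Both means were under 5 insertions per kb, and the change was not tested. At the intron of 51.7 kb the gap between subsets narrowed. Hivep3-/- libraries read 4.15 and 4.25 in iNKT1 and 1.82 and 2.00 in iNKT17, below and above the C57BL/6 values, and the 2 changes differed by -1.67 (SE 0.37, interaction adjusted p = 0.0393). That call was lost without 5 of 8 libraries, with differences from -2.01 to -1.34.

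**Figure D4:**
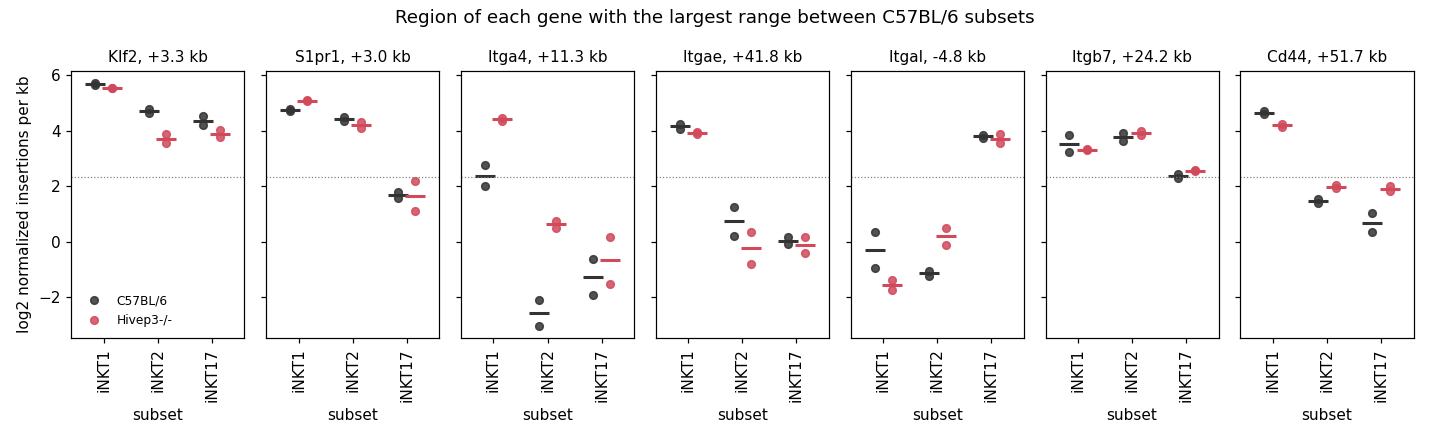
Log2 normalized insertions per kb (y axis) in each library, by subset (x axis), for the region of each gene with the largest range between C57BL/6 subset means; its distance from the gene's start in kb stands above. Points are libraries, short bars means of 2, and the dotted line is 5 insertions per kb. Itgae and Cd44 are high in iNKT1, Itgal in iNKT17, and the Itga4 points of Hivep3-/- lie above those of C57BL/6 in iNKT1 and iNKT2. At this Itga4 region the change in iNKT2 was not tested, and the call in iNKT1 was lost without any 1 of 4 libraries.

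Counted over the 7 genes, C57BL/6 iNKT1 against iNKT2 gave 10 regions higher and 2 lower of 65 tested, beside 7.33% and 8.71% of all tested regions. Against iNKT17 8 were higher and 3 lower of 64, beside 9.72% and 10.8%, and iNKT2 against iNKT17 gave 3 higher and 2 lower of 59, beside 7.72% and 8.49%. The median of the tested members was 0.33, 0.34 and 0.04, beside 0.01, 0.01 and 0.03 over all. In Hivep3-/- 13 of 68, 13 of 69 and 8 of 62 passed in either direction for the same 3 pairs, beside 17.3%, 19.3% and 15.6% of all. These comparisons share libraries with each other. Among the interactions, 1 of 68 (iNKT1 against iNKT2, at Itgae), 1 of 69 (iNKT1 against iNKT17, at Cd44) and 1 of 63 (iNKT2 against iNKT17, at Itgae) passed, beside 3.06%, 1.42% and 1.02%, shares of 1.47%, 1.45% and 1.59% of the members.

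Summed to 1 value per locus on the linear scale, and tested by limma over 15382 protein-coding loci at an adjusted p under 0.1 with no fold threshold, 3 of the 7 totals were higher in Hivep3-/- iNKT1 (4.88% of all loci) and 0 lower (2.88%). In iNKT2 2 were higher (5.8%) and 2 lower (8.06%), and in iNKT17 2 were higher (2.31%) and 0 lower (2.22%). Itga4 and Itgae were higher in all 3 subsets. The total of Itga4 was 42.0 and 45.8 in C57BL/6 and 132 and 140.5 in Hivep3-/- iNKT1, 59.4 and 53.2 and then 92.9 and 86.6 in iNKT2, and 24.7 and 22.5 and then 40.0 and 45.3 in iNKT17. Its differences were 1.63 (SE 0.11, 3.1-fold, adjusted p = 9.3e-06), 0.67 (adjusted p = 0.00185) and 0.85 (adjusted p = 0.0021), and the one in iNKT1 exceeded that in iNKT2 by 0.96 (SE 0.15, interaction adjusted p = 0.00338) and that in iNKT17 by 0.78 (SE 0.15, adjusted p = 0.0223).

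The total of Itgae went from 605 and 600 to 684 and 653 in iNKT1, from 440 and 441 to 591 and 560 in iNKT2 and from 509 and 488 to 590 and 590 in iNKT17. The genotypes did not overlap in any subset, with differences of 0.15 (adjusted p = 0.0585), 0.39 (SE 0.04, adjusted p = 0.000169) and 0.24 (adjusted p = 0.00831), and the change in iNKT1 minus that in iNKT2 was -0.24 (interaction adjusted p = 0.0331). The call in iNKT1 was lost without any 1 of its 4 libraries (0.12 to 0.18). It was also lost over the gene body alone (0.14), with 50 kb on either side (0.086) and without the trended prior. The S1pr1 total was higher in Hivep3-/- iNKT1, at 109 and 103 beside 84.5 and 86.0 (0.31, SE 0.09, adjusted p = 0.0733), and lower in Hivep3-/- iNKT2, at 107 and 112 beside 146 and 123 (-0.30, SE 0.09, adjusted p = 0.0615), a difference between the changes of 0.61 (SE 0.13, interaction adjusted p = 0.0162). Leaving out libraries ended both calls, the first being lost without any 1 of 4 libraries (0.28 to 0.35) and the second without 3 of 4 (-0.42 to -0.17). Both S1pr1 calls were also lost over the gene body alone (0.33 and -0.33). The one in iNKT1 was lost with 50 kb on either side (0.15) and without the trended prior as well. The Klf2 total was lower in Hivep3-/- iNKT2 (-0.22, SE 0.05, adjusted p = 0.0217) and lost that call without C57BL/6 replicate 2 (-0.20) or Hivep3-/- replicate 1 (-0.20), and over the gene body alone (-0.12). A fit to the compared libraries only ended the calls of Klf2 and S1pr1 in iNKT2 and of Itgae in iNKT1, with adjusted p of 0.118, 0.119 and 0.109. The iNKT1 marker promoters were lower in the same Hivep3-/- iNKT2 libraries, as given at Klf2 and S1pr1. Itgal, Itgb7 and Cd44 did not pass. For Cd44 in iNKT17 (0.20, SE 0.07, adjusted p = 0.166) the replicate block gave an adjusted p of 0.00158.

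**Figure D5:**
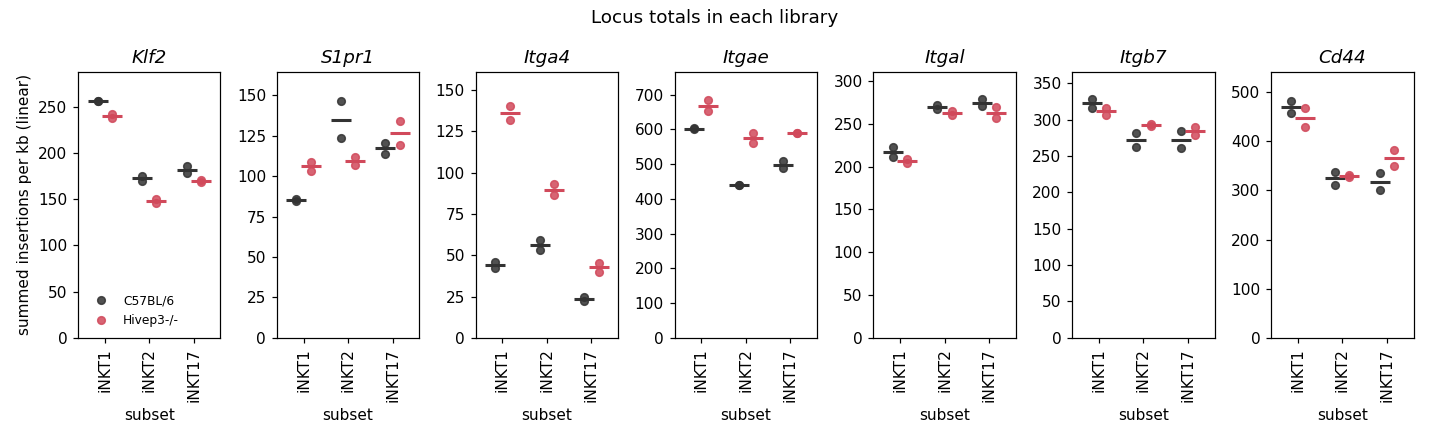
Summed normalized insertions per kb on the linear scale (y axis, from 0) over the regions of each gene in every library, by subset (x axis) and genotype; short bars are means of 2. The Itga4 points of Hivep3-/- lie above those of C57BL/6 in all 3 subsets, most in iNKT1, and S1pr1 moves up in iNKT1 and down in iNKT2.

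Between the C57BL/6 subsets 7 of 7 totals differed for iNKT1 against iNKT2 (46.3% of all loci) and for iNKT1 against iNKT17 (49.1%), and 2 of 7 for iNKT2 against iNKT17 (43.6%), those of Itga4 and Itgae. iNKT1 had the highest totals of Klf2, Itgae, Itgb7 and Cd44 and the lowest of S1pr1 and Itgal, while Itga4 had its highest mean in iNKT2 and its lowest in iNKT17. The lower Itga4 total of iNKT1 than of iNKT2 (-0.36, adjusted p = 0.018) lost its call without replicate 1 of C57BL/6 iNKT1 (-0.29) or iNKT2 (-0.28) and over the gene body alone (-0.24). Klf2 was 256 and 256 in iNKT1, 170 and 176 in iNKT2 and 186 and 178 in iNKT17, and Cd44 was 483 and 457, 338 and 311, and 336 and 300, the latter 2 subsets overlapping. The lower S1pr1 total of iNKT1 than of iNKT17 (-0.46, SE 0.09, adjusted p = 0.00119) depended on the stretch summed, since the difference was 0.06 over the gene body alone and 0.36 with 50 kb on either side. With 50 kb the totals of Itgal and Itgb7 also turned for iNKT1 against both other subsets, and that of S1pr1 for iNKT1 against iNKT2 (0.08). For S1pr1 in iNKT2 against iNKT17 (0.20, adjusted p = 0.112) the replicate block gave an adjusted p of 0.0261. The difference was also called over the gene body alone (0.68, adjusted p = 0.000942), with 50 kb on either side (0.28) and without C57BL/6 iNKT2 replicate 2 (0.32). Over all loci the interactions of totals passed in 8.85%, 3.1% and 2.64% for the 3 pairs of subsets, and in 3, 1 and 0 of the 7 members.

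The loci whose totals followed those of the members most closely over the 12 libraries, by Pearson correlation, were Dhrs9 (0.988) and Dusp1 (0.984) for Klf2, Rad54b (0.945) and Arg2 (0.922) for S1pr1, and Syngr2 (0.944) and Plscr1 (0.929) for Itga4. For Itgae they were Ikzf2 (0.969), which encodes Helios, and Ech1 (0.946), for Itgal Eps8 (0.986) and Ntrk3 (0.984), for Itgb7 Abi2 (0.956) and Trim12a (0.940), and for Cd44 Sag (0.982) and Pik3r5 (0.977). They were picked as the highest among all loci whose group means span at least 0.5, and the points share libraries and groups of subset and genotype, so the values describe likeness only.

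Lists of other genes of the same processes were read by the same test. Of 12 further egress genes with 125 regions, such as Foxo1, Cd69, Ccr7 and Gpr183, 0 of 120 tested regions passed between genotypes in iNKT1, 1 of 110 fell in iNKT2 and 0 of 112 passed in iNKT17. Over all tested regions 0.89% rose and 0.264% fell in iNKT1, 0.474% and 1.2% in iNKT2, and 0.133% and 0.138% in iNKT17. The fall was at S1pr5, another sphingosine-1-phosphate receptor (-2.55, SE 0.66, adjusted p = 0.0259). Of 14 further adhesion genes with 126 regions, 0 of 116 passed in iNKT1, 1 of 108 rose in iNKT2, at Icam2 (1.69, SE 0.31, adjusted p = 0.00453), and 1 of 108 rose in iNKT17, at Icam1 (1.72, SE 0.49, adjusted p = 0.0899), both ligands of LFA-1. By locus totals, 3 of 12 egress genes were higher in Hivep3-/- iNKT2, Dock2 (0.16), Gpr183 (0.27) and Cd69 (0.15), and Ripor2 was lower (-0.25), with none in iNKT1 or iNKT17. Of all loci 5.8% were higher and 8.06% lower in iNKT2, 4.88% and 2.88% in iNKT1, and 2.31% and 2.22% in iNKT17. Among the adhesion genes, Selplg, the P-selectin ligand, was higher in iNKT1 (0.27, adjusted p = 0.00336) and iNKT17 (0.34, adjusted p = 0.0021), Icam1 in iNKT1 and iNKT17 (0.26 in both) and Fermt3 in iNKT1 (0.18). Itgb3 was lower in iNKT1 (-0.52, adjusted p = 0.00109) and iNKT2 (-0.22), and Itga2 in iNKT2 (-0.32).

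Short motifs were read in the 69 regions and in all 63309, each 500 bp long. The share of regions with a match was 7.25% of the members and 10.5% of all for KLF, 10.1% and 6.53% for FOXO (GTAAACA), 5.8% and 2.91% for T-box, 23.2% and 17.4% for Runt, 7.25% and 9.87% for ETS, and 10.1% and 12.5% for ROR. For bZIP it was 11.6% and 15.9%, for TCF (TTCAAAG) 14.5% and 11.2%, for Egr (CGTGGGCG) 1.45% and 1.54%, and for NF-kB (GGGANTTCC or GGANTTTCC) 1.45% and 5.19%. With 69 regions a single match moves a share by 1.45 percentage points. The 2 KLF matches of the Itga4 promoter region were the most of any member, 1 of them in the bases shown, and neither region of Klf2 held a match to any of the 10 families. A match describes letters only and shows no binding.

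Regions just outside the 10 kb rule were accessible as well and belong to none of the 7 sets. The nearest, 10.3 kb beyond the end of Itgal, read between 3.28 and 4.60 over the libraries, and one 10.7 kb before it between 5.95 and 6.51. The nearest to Cd44 was 10.7 kb away (1.56 to 3.32) and the nearest to Itga4 27.3 kb (2.00 to 4.01). Of the members close to the edge, the Itgae region 10.1 kb before the start is described with that gene, and the Itgal region 9.91 kb before its start read between 2.62 and 4.41.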

How the data were processed

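The deposited table holds log2 normalized insertions per kb for 63309 regions of 500 bp (mm10) in 12 libraries. According to the study's methods, the authors trimmed reads to 50 bp with Trimmomatic (version 0.39 in the submitters' processing notes), ran the ENCODE ATAC-seq pipeline, merged the peaks of all replicates, counted insertions with chromVAR and normalized with voom. How reads mapping to several places were treated is not given in the sources used here. The 7 genes, lists and tests were chosen with earlier results of these data known.

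Values were fitted with limma 3.58.1 (R 4.3.3) as 6 group means with a trended prior, testing each region whose mean reached 5 insertions per kb in 1 or both compared groups (any of the 4 groups for interactions), and p-values were adjusted by Benjamini-Hochberg. A call needed a 3-fold change with an adjusted p under 0.1, which are the thresholds in the study's methods. Locus totals sum linear values over a gene and 10 kb on either side. With 2 against 2 libraries an exact permutation test cannot go below 0.333, so all p-values come from limma. Regions were named by rule: the promoter region, the one with the widest range between C57BL/6 subsets, the one with the largest tested genotype difference, and those called between genotypes or in interactions. Any further region was picked with its values in view. The fit was tested on simulated data. Sequences are from GRCm38.p6 and gene models from GENCODE vM21, read with pysam 0.24.0. No protein sequence was used here, and 1 gene of the egress list is not reported here.

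Sample titles number the mice 1 and 2 in each group, and no source says what a number shares across groups. Since subsets were joined for the transposition, libraries of different subsets may come from 1 reaction, which the main fit does not model. Deviations of equally numbered libraries from their group means correlated at 0.143 to 0.242 in all 15 pairs of groups over 56928 regions, so a fit with the number as a block was run as an alternative. The others were another filter or none, pseudocounts of 1 and 5, renewed quantile normalization, equal medians, only the compared libraries, no trend, a 2-fold threshold, the gene body alone or with 50 kb, a narrower promoter window, and each library left out.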

Additional observations from a re-analysis of the deposited data

Results flagged for a closer look

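The genotype change (Hivep3-/- minus C57BL/6) differed between subsets by the interaction term of limma for 7 results, each given as the change in the first subset minus that in the second. At single regions they were the Itgae region 10.1 kb before the start, iNKT2 against iNKT17 (1.82), the Itgae intron at 42.6 kb, iNKT1 against iNKT2 (1.73), and the Cd44 intron at 51.7 kb, iNKT1 against iNKT17 (-1.67). Among locus totals they were S1pr1 in iNKT1 against iNKT2 (0.61), Itga4 in iNKT1 against iNKT2 (0.96) and against iNKT17 (0.78), and Itgae in iNKT1 against iNKT2 (-0.24). The 3 single-region calls were lost with a pseudocount of 1 or 5, and each was lost without at least 1 library. Groups of 2 libraries are too small for a test of single outlying libraries.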

How the results depend on the processing

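Of 1132 values of single regions and loci under an alternative, 1030 kept their direction and side of the threshold, 61 lost a call, 13 gained one, 1 moved and 27 reversed, and of 205 counts 165 stayed within 1.5 times. The cause of these changes was not tested unless the alternative itself sets it. The counts below are of member regions called, for the genotypes in iNKT1, iNKT2 and iNKT17, for the 3 subset pairs (iNKT1 against iNKT2, iNKT1 against iNKT17, iNKT2 against iNKT17) and for the interactions. A 2-fold threshold gave 7 in iNKT1, 3 in iNKT2 and 2 in iNKT17, 22, 21 and 14 in C57BL/6, 20, 23 and 16 in Hivep3-/-, and 8 interactions. Of all tested regions that threshold called 3.56% in iNKT1, 5.11% in iNKT2, 1.37% in iNKT17, 27.3%, 31.7% and 26.1% in C57BL/6, 29.5%, 30.0% and 25.9% in Hivep3-/-, and 6.68%, 2.74% and 2.18% in the interactions. A pseudocount of 5 gave 0 in iNKT1 and 0 in iNKT2, 3, 6 and 2 in C57BL/6, 4, 8 and 1 in Hivep3-/-, and 0 interactions, and a pseudocount of 1 gave 1 interaction. Without a filter 4 were called in iNKT2, 2 in iNKT17 and 9 for C57BL/6 iNKT2 against iNKT17. A filter on the mean of all libraries gave 2 in iNKT17 and 5 for Hivep3-/- iNKT2 against iNKT17. Among the rises in iNKT17 that the main filter left untested were those of the Itga4 intron at 4.53 kb (2.10) and the Cd44 UTR exon. Renewed quantile normalization left 1 in iNKT1, and there and without the trend the Itga4 intron at 11.3 kb had adjusted p of 0.152 and 0.119. No share over all regions was taken with the pseudocounts, the other filters, the renewed normalization or a library left out. Counts under those settings thus do not compare the members with other regions.

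The gene body alone gave 0 in iNKT2, 2 and 5 for iNKT2 against iNKT17 in C57BL/6 and Hivep3-/-, and 5 locus totals between genotypes. It reversed the totals of Itgal in iNKT1 (0.016) and iNKT2 (0.073), and those of S1pr1 in iNKT17 (-0.044) and in C57BL/6 iNKT1 against iNKT17 (0.059). With 50 kb on either side, 5 were called in iNKT1, 21 and 13 for C57BL/6 iNKT1 and iNKT2 against iNKT17, 23, 24 and 14 in Hivep3-/-, and 7 interactions. In C57BL/6 it reversed the totals of Itgal (0.065, 0.13 and 0.069 for the 3 pairs), Itgb7 (-0.091 and -0.24, iNKT1 against iNKT2 and iNKT17), S1pr1 (0.082 and 0.36, the same pairs), Cd44 (-0.23) and Klf2 (0.15), the last 2 for iNKT2 against iNKT17.

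Leaving out each library gave 1 to 3 interactions. Signs turned at the promoters of Itgb7 in iNKT1 (-0.066 to 0.24) and iNKT17 (-0.16 to 0.17), Cd44 in iNKT1 (-0.015 to 0.22) and iNKT17 (-0.087 to 0.093), S1pr1 in iNKT17 (-0.20 to 0.022) and Itgal in iNKT2 (-0.23 to 0.0051), and for the totals of Itgb7 (-0.063 to 0.057) and Cd44 (-0.051 to 0.11) in C57BL/6 iNKT2 against iNKT17 and Cd44 in iNKT2 (-0.036 to 0.081). A group left with 1 library was assumed to vary like the others. With the replicate block the Itga4 region at 11.9 kb was called in iNKT1 (2.31), as were the totals of Cd44 in iNKT17 (0.20) and S1pr1 in C57BL/6 iNKT2 against iNKT17 (0.20), and it changed no other call. Besides the block, only the pseudocount of 1 and the fit to the compared libraries called that Itga4 region. The depth of the libraries could not be read from the table, so intervals from counts were not given.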

Other observations

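Between the C57BL/6 subsets the further egress genes had 20 regions higher and 2 lower in iNKT1 than in iNKT2 of 122 tested, 12 higher and 6 lower than in iNKT17 of 123, and 3 higher and 15 lower in iNKT2 than in iNKT17 of 114. Their median differences were 0.26, 0.11 and -0.14. The further adhesion genes had 12 higher and 4 lower of 120, 14 higher and 3 lower of 119, and 5 higher and 6 lower of 110 for the same pairs, with medians of 0.10, 0.38 and 0.15. Over all tested regions 7.33% were higher and 8.71% lower in iNKT1 than in iNKT2, 9.72% and 10.8% against iNKT17, and 7.72% and 8.49% in iNKT2 against iNKT17.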
